A study of Mus musculus with 44 samples.

Results

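The mitotic cells of the single-cell library titled GTML_SOX9-GFP, from a mouse medulloblastoma, were defined by the mRNAs they carried. A cell counted as mitotic when at least 5 of 8 genes each had 1 or more unique molecular identifiers (UMIs, tags that mark 1 captured mRNA molecule): Plk1, Aurka, Cenpe, Hmmr, Cenpf, Cdc20, Ccnb1 and Nusap1. This rule took 2202 of the 4645 cells of the library, 47.4% (exact binomial 95% interval 46.0 to 48.9%), and left 2443 other cells. The series holds 9143 cells in all, and the second single-cell library, fGTS2, is used here only beside it. Because the rule read these same UMI counts, differences between mitotic and other cells are given as descriptions without a test.

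Cells prepare for division in G2 phase by filling up with mRNAs for the spindle, the kinetochores and the kinases that start mitosis, and the proteins are destroyed at mitotic exit through the anaphase-promoting complex. Their genes are switched on through FOXM1, B-MYB and the MuvB complex, and in resting cells MuvB is part of a repressor of the same genes. Medulloblastoma is a cerebellar tumor with many dividing cells, and MYC family genes are amplified in some of its aggressive forms. A UMI count shows that a cell carries these mRNAs, and it does not show whether the cell had entered M phase or was still in G2.

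In GTML mice MYCN is made from a tetracycline-regulated transgene whose regulator is expressed from Glt1 (Slc1a2), a glutamate transporter gene of glia. GTS mice carry a regulator expressed from Sox9. The single-cell libraries were made with 10x Chromium 3' chemistry, version 3, from 1 sample labelled as a GTML tumor and 1 labelled as a GTS tumor, both with no treatment named. Samples that took no part in choosing the cells were used for tests: bulk RNA of the line GTML3 given DOX or DMSO (3 libraries each, all carrying the GTML transgene and all from 1 line), and bulk RNA of 6 GTS and 8 GTML tumors. Bulk RNA of another line, preGTS1, under DOX and DMSO entered the same fit as GTML3. It served only the shared estimate of the spread and the gene filter, and its own contrast is not reported here. ATAC-seq, a transposase assay of open chromatin, was available for duplicates of GTML3 under DOX and under DMSO. The labels give no age, no DOX dose, no treatment time and no statement on sorting for these samples.

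The GTML_SOX9-GFP library held 9.58106e+07 UMIs with a median of 18744 per cell, and fGTS2 a median of 20893.5; 6 cell barcodes occurred in both. Its label was checked against genes that separate the bulk tumors, chosen after their values were seen. Otx2 averaged 4.42 ± 3.09 log2 CPM over the GTS tumors (SD, n = 6) and 7.90 ± 0.940 over the GTML tumors (SD, n = 8), but it is listed in neither single-cell table. Nr1h5 averaged 1.93 ± 1.06 over GTS and 6.22 ± 0.80 over GTML tumors, and it is not listed in the GTML_SOX9-GFP table. Cadps2 averaged 8.53 ± 1.28 over GTS and 3.38 ± 0.582 over GTML tumors, and it had 182 UMIs per M UMIs in GTML_SOX9-GFP and 130 in fGTS2. The library labelled GTML_SOX9-GFP thus went against its label on these genes. Sox9 and Mycn went with it: Sox9 had 12.2 UMIs per M in GTML_SOX9-GFP and 68.6 in fGTS2, beside 4.28 ± 1.2 log2 CPM over GTS and 2.55 ± 0.971 over GTML tumors. Mycn had 65.0 UMIs per M in GTML_SOX9-GFP and 48.4 in fGTS2, beside 7.0 ± 0.579 log2 CPM over GTS and 7.63 ± 0.283 over GTML tumors. Below, the label serves as the library's name only. Recovered depth of the bulk RNA was 10.9 to 16.7 M reads under DOX and 15.6 to 20.7 M under DMSO.

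The 8 rule genes were unevenly present among the mitotic cells. Cenpf, a kinetochore-associated protein, had a UMI in 99.6% of mitotic and 56.7% of other cells. Plk1 (Polo-like kinase, needed for spindle assembly) had one in 79.4% against 8.68%, and Aurka (Aurora A, the centrosome kinase) in 77.7% against 9.01%. Between these lay Hmmr, a spindle assembly factor, with 91.3% against 13.5%, the kinetochore motor Cenpe with 90.6% against 23.8%, and Cdc20, the activator of the anaphase-promoting complex, with 89.9% against 22%. Ccnb1, which encodes cyclin B1, had 89.6% against 21.6%, and the spindle protein Nusap1 88.0% against 12.1%. All of these shares follow from the rule. No cell type that should lack these mRNAs was defined in the library, so a background share from free RNA cannot be given.

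Cells were fewest in the middle of the range. All 8 rule genes were found in 1073 cells (23.1% of the library), while 558 cells (12.0%) had none and 675 (14.5%) had 1, and the classes were smallest with 284 cells at 4 genes and 292 at 5, on the 2 sides of the threshold. In fGTS2 882 cells had all 8 and 975 had none. Among cells just inside the threshold, those with 5 rule genes, Cenpf was present in 97.3% and Plk1 in 34.9%. Depth moved with the rule: mitotic cells had a median of 22682 UMIs and 4776 genes, other cells 16042 UMIs and 3885 genes. The share of mitotic cells was 15.9% among cells under 8000 UMIs (41 of 258) and 76.3% among cells with 26000 or more (811 of 1063). With every cell thinned at random to 8000 UMIs, the rule took 1448 of 4387 cells, 33% (31.6 to 34.4%). In fGTS2 the same rule took 1724 of 4498 cells, 38.3% (36.9 to 39.8%), and 24.7% (23.4 to 26.0%) after thinning. These intervals cover counting error within 1 library each, and the difference between the libraries has no replicate check. A doublet caller marked 1 of the 4645 cells and so gave no usable check, and 88.0% of the 233 deepest cells met the rule. The part of depth and of doublets in the share was not tested.

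**Figure D1:**
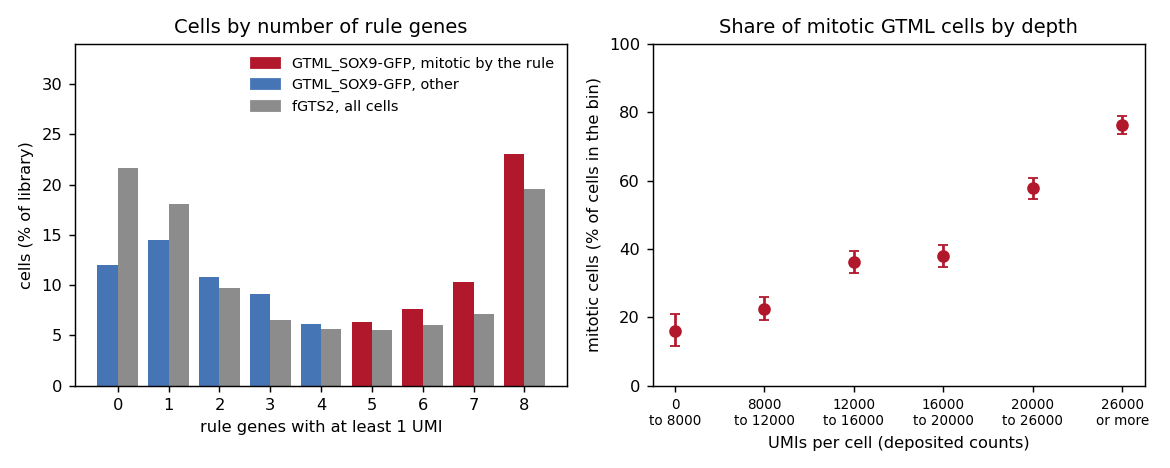
Left, percent of the cells of each library by how many of the 8 rule genes had at least 1 UMI, for GTML_SOX9-GFP (red, mitotic by the rule; blue, other) and fGTS2 (grey). Right, percent of GTML_SOX9-GFP cells that met the rule in each class of UMIs per cell, with exact binomial 95% intervals as bars; it runs between 15.9% in the shallowest and 76.3% in the deepest class.

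All levels below are mean UMIs per cell at 8000 UMIs, over 2161 mitotic and 2226 other cells (41 and 217 shallower cells were left out). A ratio is the mitotic mean over the mean of other cells, with an exact 95% interval for counting error only, and genes with a mean of at least 0.1 in either group were called measured. Of 7412 measured genes, 213 were at least 2-fold higher in mitotic cells (2.87%), and 14 were at least 2-fold lower (0.189%), around a median ratio of 1.01. Set against the cells with 0 rule genes alone, 407 genes were higher and 108 lower. The rule genes stood at 20.2 (Nusap1), 16.7 (Hmmr), 16.2 (Plk1), 15.2 (Aurka), 8.62 (Cenpe), 7.97 (Cdc20), 7.58 (Ccnb1) and 6.99 (Cenpf), as they had to.

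Outside the rule genes, the 25 genes with the largest ratios ran between 6.44 and 20.3, and 10 of them encode kinesins, the microtubule motors. Fam83d, which loads the motor KID onto the spindle, led with 0.219 UMIs per mitotic cell against 0.0108 per other cell, a ratio of 20.3 (13.5 to 32.0) that rests on 473 and 24 UMIs. Arhgap19 followed at 12.8. Prc1, which bundles the microtubules of the central spindle, had far more molecules behind it, 5811 and 538 UMIs, or 2.69 against 0.242 per cell, a ratio of 11.1 (10.2 to 12.2). Tpx2, the activator of Aurora A on the spindle, had 1.96 against 0.229 UMIs per cell (ratio 8.54). The kinesins were Kif2c (9.27), Kif23 (9.24), Kif14 (8.97), Kif11 (8.25), Kif18b (7.83), Kif22 (7.70), Kif18a (7.59), Kifc1 (7.35), Kif20a (6.87) and Kif4 (6.67). The others were Ccnf (10.5), Ckap2l (8.98), Aspm (8.95), Parpbp (8.51), Troap, Prr11 and Cenpl (8.44 each), Gtse1 (8.07), Spc25 (7.30), Pimreg (7.28) and Cdca2 (6.44). In fGTS2 cells split by the same rule all 25 were again higher, between 4.08 (Prr11) and 22.1 (Kif2c). Within the depth class of 8000 to 12000 UMIs Prc1 had a ratio of 11.9 and Tpx2 7.89, and in the deepest class 11.4 and 8.83.

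**Figure D2:**
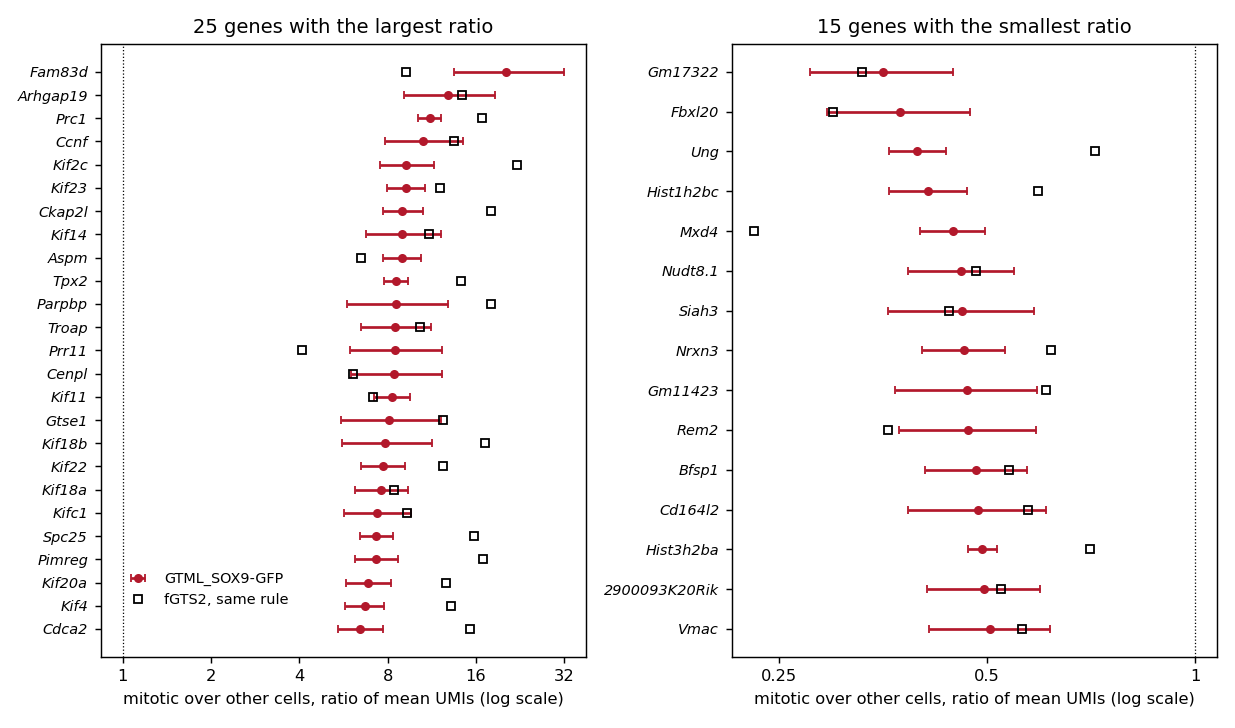
Ratio of mean UMIs at 8000 UMIs per cell, mitotic over other cells, on a log axis, for the 25 measured genes with the largest (left) and the 15 with the smallest ratio (right) outside the rule genes. Red points and bars are GTML_SOX9-GFP with exact 95% counting intervals, open squares the same ratio in fGTS2; Fam83d stands at 20.3 and Gm17322 at 0.353.

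Promoters of genes that peak in G2 and mitosis are known to carry a short element named CHR, with the letters TTTGAA, often beside CCAAT boxes, which NF-Y binds. The 300 bases around the start of each gene (250 before, 50 after) were read from RefSeq promoters of GRCm38.p6 and searched on both strands for TTTGAA and CCAAT, which can share an end base. The first 6 promoters are shown because they stand for the rule genes (Plk1, Hmmr, Cdc20) and the leading genes (Prc1, Kif23, Fam83d) that hold both motifs, and Mxd4 stands for a gene that was lower in mitotic cells. The windows are chr7:122159185-122159484 (plus strand) for Plk1, chr11:40733388-40733687 (minus) for Hmmr, chr4:118437294-118437593 (minus) for Cdc20, chr7:80294201-80294500 (plus) for Prc1, chr9:61946750-61947049 (minus) for Kif23, chr2:158767849-158768148 (plus) for Fam83d and chr5:34187661-34187960 (minus) for Mxd4. Each is written 5′ to 3′ on the gene's strand, and capitals mark TTTGAA or its reverse complement TTCAAA, and CCAAT or its reverse complement ATTGG.
Plk1: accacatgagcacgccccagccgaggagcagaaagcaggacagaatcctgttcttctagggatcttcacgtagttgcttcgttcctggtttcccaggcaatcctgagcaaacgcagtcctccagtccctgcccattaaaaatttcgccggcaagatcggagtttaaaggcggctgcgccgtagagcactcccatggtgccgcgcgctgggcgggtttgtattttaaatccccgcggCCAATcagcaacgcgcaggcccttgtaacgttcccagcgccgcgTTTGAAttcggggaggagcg
Hmmr: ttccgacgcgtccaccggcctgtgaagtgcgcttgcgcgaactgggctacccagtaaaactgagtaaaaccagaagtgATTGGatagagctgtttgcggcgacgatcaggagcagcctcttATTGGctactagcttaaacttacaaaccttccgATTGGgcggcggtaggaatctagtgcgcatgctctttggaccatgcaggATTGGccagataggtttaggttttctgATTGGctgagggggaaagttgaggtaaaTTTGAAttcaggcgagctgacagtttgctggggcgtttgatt
Cdc20: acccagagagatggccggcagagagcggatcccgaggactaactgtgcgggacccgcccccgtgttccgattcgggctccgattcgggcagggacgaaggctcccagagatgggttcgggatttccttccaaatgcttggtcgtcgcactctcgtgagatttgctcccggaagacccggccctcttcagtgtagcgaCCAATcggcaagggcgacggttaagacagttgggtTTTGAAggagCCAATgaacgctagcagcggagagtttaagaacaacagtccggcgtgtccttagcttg
Prc1: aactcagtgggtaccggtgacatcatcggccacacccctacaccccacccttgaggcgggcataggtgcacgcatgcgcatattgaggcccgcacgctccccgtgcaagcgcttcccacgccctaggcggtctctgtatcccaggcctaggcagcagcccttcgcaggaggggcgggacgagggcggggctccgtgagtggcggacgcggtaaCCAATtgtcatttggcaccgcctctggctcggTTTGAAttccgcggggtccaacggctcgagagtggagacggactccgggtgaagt
Kif23: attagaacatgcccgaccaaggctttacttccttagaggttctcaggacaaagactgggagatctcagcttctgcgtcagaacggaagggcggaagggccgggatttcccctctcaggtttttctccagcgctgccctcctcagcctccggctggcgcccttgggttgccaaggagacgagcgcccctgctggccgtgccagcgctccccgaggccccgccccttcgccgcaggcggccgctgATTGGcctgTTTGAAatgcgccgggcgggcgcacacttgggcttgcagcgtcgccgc
Fam83d: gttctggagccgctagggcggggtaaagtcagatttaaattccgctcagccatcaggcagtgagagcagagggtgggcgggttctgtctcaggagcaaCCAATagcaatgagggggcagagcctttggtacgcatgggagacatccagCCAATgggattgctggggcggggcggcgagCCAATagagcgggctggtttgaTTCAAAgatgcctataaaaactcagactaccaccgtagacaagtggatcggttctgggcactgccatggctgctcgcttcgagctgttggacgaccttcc
Mxd4: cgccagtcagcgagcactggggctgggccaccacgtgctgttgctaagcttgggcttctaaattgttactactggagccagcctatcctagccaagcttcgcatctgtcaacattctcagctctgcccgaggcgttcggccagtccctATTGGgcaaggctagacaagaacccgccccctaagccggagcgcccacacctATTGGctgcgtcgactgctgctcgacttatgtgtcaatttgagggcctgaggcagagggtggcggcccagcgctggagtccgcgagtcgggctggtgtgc

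In the 6 shown promoters that hold it, TTTGAA stood close to the start. Its first base lay 50 bases before the start in Fam83d, 18 before in Cdc20 and 5 before in Prc1. In Kif23, Hmmr and Plk1 it lay 2, 8 and 30 bases after the start. A CCAAT box lay upstream of it in each of the 6. Mxd4 holds 2 CCAAT boxes and no TTTGAA. Of the 25 leading genes 21 matched a RefSeq promoter, and 18 of these (85.7%) held TTTGAA, against 18.1% of all 27025 promoters and 11.8% of the 5916 measured genes with a promoter. Within 50 bases of the start TTTGAA was found in 14 of the 21 (66.7%), against 4.92% of all promoters. It was farther away in others, with its first base at -228 in Kif14. CCAAT was found in 19 (90.5%), against 37.9% of all promoters, and both motifs in 17 (81.0%), against 7.12%. The rule genes held TTTGAA in 5 of 8 and CCAAT in 7 of 8. Of 11 matched genes among the 15 lowest, 1 held TTTGAA and 3 held CCAAT. The S phase list differed in TTTGAA more than in CCAAT, with 5 (16.1%) and 22 (71.0%) of 31 promoters. A match describes these letters only and is not a bound site.

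The genes of mitosis were also read by role, in 7 lists with 94 genes, all measured; 83 of them were at least 2-fold higher in mitotic cells and 0 lower, with a median ratio of 4.29. Their summed level was 105.6 UMIs per mitotic cell and 30.9 per other cell. The spread within each group was wide: the central 90% of mitotic cells ran between 48 and 175 UMIs, those of other cells between 9 and 68, so the groups overlapped. In fGTS2, 84 of 90 measured genes of these lists were at least 2-fold higher, against 323 of all 6794 measured genes there (4.75%).

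Mitotic entry genes had 11 of 15 members past 2-fold, with a median ratio of 3.47. Cdk1, the kinase that drives entry, had 2.0 UMIs per mitotic cell against 0.350 (5.73, 5.31 to 6.19), and its partners Ccna2 and Ccnb2 stood at 4.94 and 3.47. Foxm1, the transcription factor of the G2 program, was at 4.54 and the phosphatase Cdc25c at 5.35. The members under 2-fold were Pkmyt1 (1.88), Wee1 (1.77) and Cdc25b (1.58), which set the inhibitory phosphate on CDK1 or remove it, and Mybl2 (1.68).

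Chromosome condensation and chromatin genes had 13 of 15 past 2-fold (median 3.22) and held the most abundant mRNAs. Hmgb2, a chromatin protein, reached 12.7 against 4.03 UMIs per cell, a ratio of 3.15. Top2a, which untangles sister DNA, had 6.74 against 1.25 (5.39, 5.17 to 5.61), and the proliferation antigen Mki67 2.83 against 0.509 (5.56). The condensin subunit Smc4 was at 3.49, and Cbx5, the heterochromatin protein HP1 alpha, lowest at 1.52.

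Spindle and centrosome genes had the highest median of the 7 lists, 6.62, with 19 of 20 members past 2-fold and the augmin subunit Haus8 (1.41) outside. Kinetochore and checkpoint genes had 19 of 20 (median 4.31). There the NDC80 subunit Spc25 led at 7.30, the checkpoint proteins Bub1b and Bub1 stood at 5.87 and 5.39, Mad2l1 at 2.59, and the centromeric histone Cenpa, at 2.47 against 0.863 UMIs per cell, at 2.86. Bub3 was just under 2-fold at 1.99. All 4 members of the chromosomal passenger complex, the Aurora B machine that corrects attachments, were higher: Incenp 5.96, Aurkb 5.6, Birc5 4.67 and Cdca8 4.33.

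Anaphase and mitotic exit genes had the lowest median of the 7 lists, 2.30, with 8 of 11 past 2-fold. Separase, from Espl1, stood at 6.19 and its inhibitor securin, from Pttg1, at 2.27. Ube2c, the ubiquitin-conjugating enzyme of the anaphase-promoting complex, had 5.73 against 1.03 UMIs per cell (5.58), while the subunit Cdc27 was at 1.63 and the phosphatase Cdc14b at 1.06 (0.906 to 1.24). Cytokinesis genes had 9 of 9 past 2-fold with a median of 5.94, from Racgap1 at 3.90 to its centralspindlin partner Kif23 at 9.24.

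**Figure D3:**
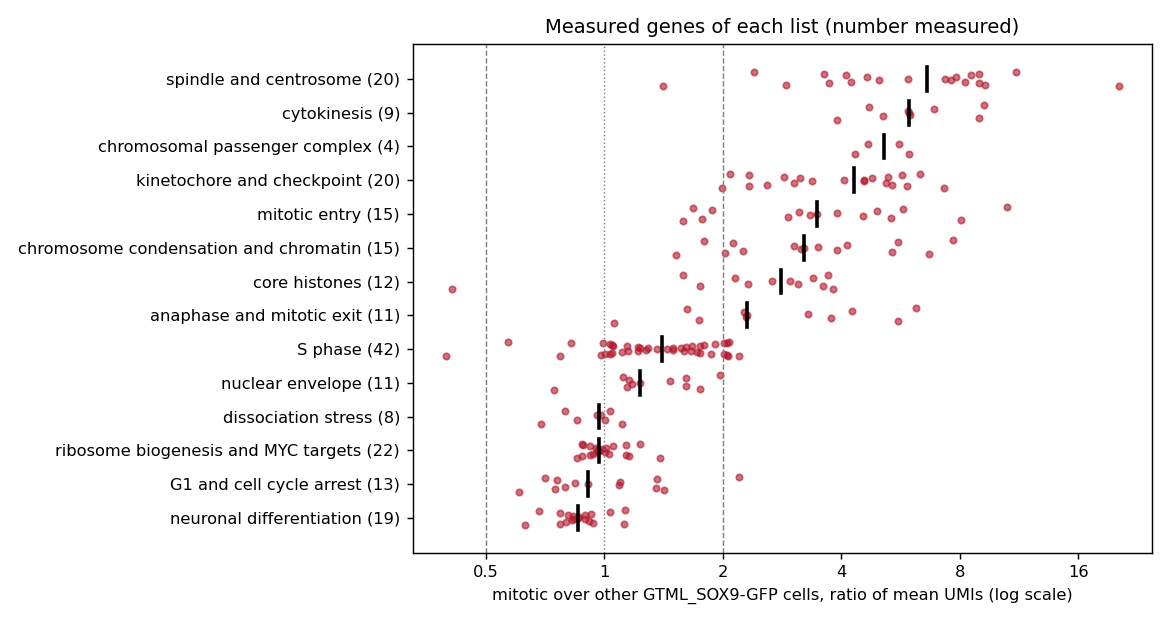
Ratio of mean UMIs, mitotic over other GTML_SOX9-GFP cells, on a log axis, for each measured gene of each list (points) with the list's median (bar); the dotted line marks 1 and dashed lines 0.5 and 2, and points are spread vertically for view. In the 7 mitotic lists 83 of 94 points lie at or above 2, with medians between 2.30 and 6.62, while ribosome biogenesis (0.966) and neuronal differentiation (0.855) lie around 1.

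Within the mitotic cells, levels were graded by how many rule genes a cell held. The summed level of the 7 lists was 16.6 UMIs in cells with 0 rule genes and 52.9 in cells with 4, just outside the rule. It was 66.5 in cells with 5, just inside, 82.2 with 6, 98.3 with 7 and 126 with 8. No step stood at the threshold. Top2a had 2.63 UMIs per cell at 4 rule genes, 3.27 at 5 and 8.64 at 8. Ube2c ran between 0.545 in cells with 0 and 7.71 in cells with 8, and Prc1 between 0.084 and 3.67. The classes count rule genes in these same cells, so a rise of related genes with them was built in. Depth rose as well, from a median of 17613 UMIs at 5 rule genes to 25890 at 8. Arl6ip1, an endoplasmic reticulum shaping protein in no list, had 0.873 at 0 and 6.46 at 8.

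**Figure D4:**
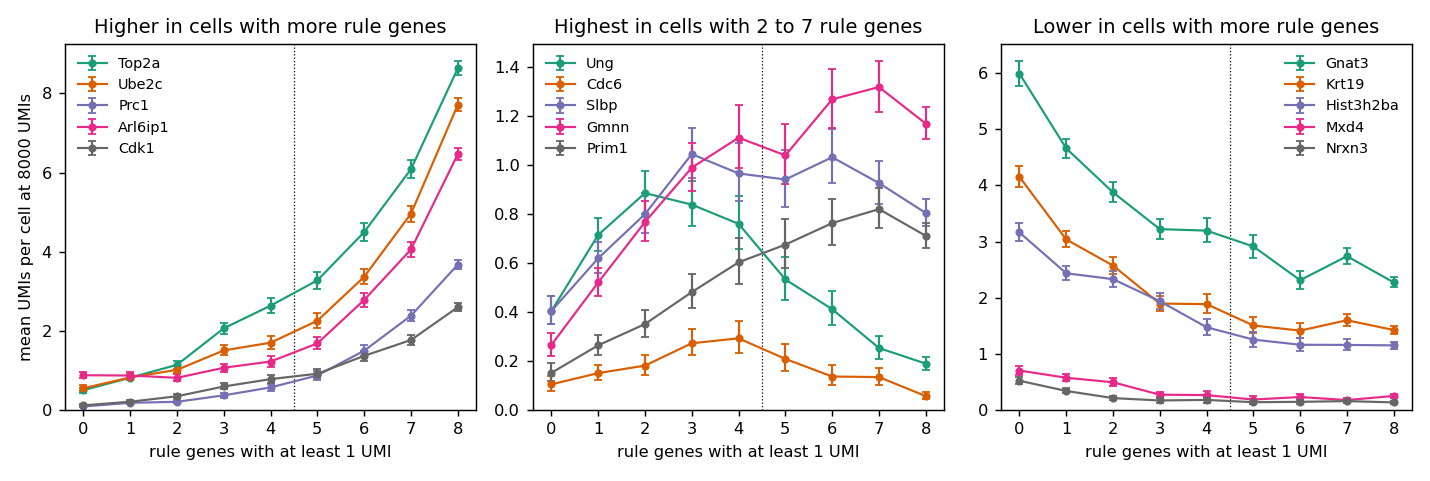
Mean UMIs per cell at 8000 UMIs against the number of rule genes with at least 1 UMI in GTML_SOX9-GFP cells; bars are exact 95% counting intervals, and the dotted line separates other cells (0 to 4) from mitotic cells (5 to 8). Genes are grouped by shape: those higher with more rule genes, such as Top2a (8.64 at 8), those highest at 2 to 7, such as Ung (0.886 at 2), and those lower, such as Gnat3 (2.27 at 8).

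DNA replication genes followed another course. Of 42 measured S phase genes, 7 were at least 2-fold higher in mitotic cells and 1 lower, with a median ratio of 1.40. Many lay close to 2-fold, and the count of 7 was 4 with another random seed, 1 without thinning and 31 against the cells with 0 rule genes alone. Their summed level was 25.2 UMIs per mitotic and 18.6 per other cell, and across cells with 0, 4, 5 and 8 rule genes it was 9.5, 28.2, 26.8 and 23.4. Prim1, the DNA primase, was at 2.2 and the clamp Pcna at 1.57, while Mcm6 of the replicative helicase was at 1.05 (0.980 to 1.12). Ung, the uracil-DNA glycosylase, was the member past 2-fold lower, with 0.281 UMIs per mitotic and 0.710 per other cell (0.396, 0.360 to 0.436). Ung was highest in cells with 2 rule genes (0.886) and lowest in cells with 8 (0.189), and the origin licensing factor Cdc6 had 0.292 at 4 and 0.056 at 8. In fGTS2, where 4.75% of all measured genes were at least 2-fold higher, 29 of 42 S phase genes were (median 2.47) and Ung stood at 0.716; the difference between the libraries was not tested.

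Histone mRNAs of the replication-dependent kind mostly lack a poly(A) tail, so 3' capture counts them in part. The list named core histones also holds linker histones and histone variants. Of its 12 measured genes 9 were at least 2-fold higher, and the list summed to 54.0 UMIs per mitotic and 29.6 per other cell. Hist2h2ac stood at 3.82, H2afx, the variant phosphorylated at DNA breaks, at 3.7 with 2.05 against 0.555 UMIs, and the linker histone Hist1h1b at 3.6. The variant H2afz, with 20.7 against 13.1 UMIs, was at 1.59. Hist1h2bc of the list (0.411) and Hist3h2ba outside it (0.492, with 1.17 against 2.37 UMIs), both H2B genes, went the other way.

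The 15 genes with the smallest ratios ran between 0.353 and 0.505. Beside Ung and the H2B genes they held Fbxl20 (0.374), an F-box protein, Nrxn3 (0.463), a presynaptic adhesion molecule, Rem2 (0.470), a small GTPase that acts on calcium channels, and Bfsp1 (0.482), a lens filament protein. Gm17322 (0.353), Gm11423 (0.467), 2900093K20Rik (0.495), Nudt8.1 (0.458), Siah3 (0.460), Cd164l2 (0.485) and Vmac (0.505) made up the rest with Mxd4. MXD proteins pair with MAX in place of MYC and repress its targets, and 2 of them went opposite ways. Mxd4 had 0.219 UMIs per mitotic and 0.492 per other cell (0.446, 0.399 to 0.497), and 0.230 in fGTS2. Mxd3 had 0.330 against 0.0651 (5.07, 4.23 to 6.10), and 9.76 in fGTS2. Their order held in every depth class, with Mxd4 between 0.306 and 0.544 and Mxd3 between 4.14 and 6.37. The gene Mycn was at 0.492 against 0.568 UMIs per cell (0.867, 0.798 to 0.942), and Max at 0.849. The lower level of Mycn did not hold in every depth class. Its ratio was 1.05 (0.792 to 1.37) at 8000 to 12000 UMIs and 0.736 (0.618 to 0.877) at 20000 to 26000.

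Sox9, the transcription factor named in the title of the series, was near the detection limit. At 8000 UMIs it had 203 UMIs in mitotic and 207 in other cells, or 0.0939 and 0.0930 per cell, a ratio of 1.01 (0.828 to 1.23), and was below the level called measured. A Sox9 UMI was found in 151 of 2161 mitotic cells, 6.99% (5.95 to 8.14%), and in 133 of 2226 other cells, 5.97% (5.03 to 7.04%). On deposited counts the shares were 16.7% and 9.82%, where the mitotic cells were also the deeper ones. Read from the Sox9 side, 53.2% of the 284 cells with a Sox9 UMI (47.2 to 59.1%) and 49.0% of the 4103 cells without one were mitotic. Cells with 0 rule genes had 0.155 Sox9 UMIs and all other classes between 0.061 and 0.102, so the low level did not run one way with the rule genes. That 0.155 came from 76 UMIs in 34 of 490 cells. Their share, 6.94% (4.85 to 9.56%), was close to that of mitotic cells.

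Markers of vessel and immune cells that the table lists were near 0 in both groups, but many of the markers are not listed in it: 6 of 12 microglial and macrophage genes are listed, 1 of 6 T and NK cell genes, 4 of 6 endothelial genes and 0 of 6 erythroid genes. In CPM of summed UMIs, microglial and macrophage markers summed to 0.348 in mitotic and 0.848 in other cells, T and NK cell markers to 0.0183 and 0.0485, and endothelial markers to 1.89 and 1.43. Photoreceptor genes, which mark the Group 3 kind of medulloblastoma, summed to 6.51 and 6.88, with 8 of 17 listed and Crx and Otx2 not listed. Astroglial markers stood at 240 and 223, with 13 of 17 listed and Slc1a3, Gja1, Gfap and Sparcl1 not listed. Oligodendrocyte markers stood at 157 and 157, with 7 of 11 listed and Mag, Mog, Sox10 and Mobp not listed. After thinning, Olig1 alone made 1698 of 2760 oligodendrocyte UMIs in mitotic and 1656 of 2749 in other cells. Ribosome biogenesis genes had a median ratio of 0.966 with 0 of 22 past 2-fold, and dissociation stress genes 0.968 with 0 of 8. Mitochondrial transcripts made a median of 7.21% and 7.47% of UMIs.

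Bulk RNA of GTML3 gave a test in samples that the rule did not use. DOX changed a large part of the transcriptome: limma called 31.4% of 15926 genes lower and 34.5% higher at an adjusted p under 0.05, with 3 libraries each. All 8 rule genes and all 24 of the leading genes that were tested (25 less Pimreg) fell under DOX, against that background of 31.4%. The leading genes had a median log2 fold change of -2.66, between -3.02 (Kif11) and -1.69 (Cenpl), and the rule genes of -2.69. In bulk RNA, fewer cells in G2 and mitosis and less of these mRNAs per cell cannot be told apart.

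Prc1 stood at 5.43, 5.48 and 5.6 log2 CPM under DOX and at 8.02, 8.04 and 8.09 under DMSO, so the difference was -2.55 on the log2 scale with an SE of 0.0761 (limma adjusted p 4.42e-13). Plk1 had 3.7, 3.64 and 3.47 log2 CPM under DOX, against 6.41, 6.26 and 6.28 under DMSO (difference -2.71, SE 0.0987; limma adjusted p 2.86e-12). Ccnb1 had 4.72, 5.21 and 5.15 under DOX, against 8.02, 8.13 and 7.99 under DMSO, a log2 fold change of -3.02. For these genes every DOX library lay at least 2 log2 units below every DMSO library. How many of all tested genes had such a gap was not counted. Fam83d, which had few UMIs in the cells, was well covered in bulk, with 3.94, 3.58 and 3.57 log2 CPM under DOX and 6.19, 6.13 and 6.24 under DMSO (-2.49). Top2a had 7.28, 7.48 and 7.61 under DOX and 10.5, 10.7 and 10.6 under DMSO. Mycn had 4.93, 5.07 and 4.8 log2 CPM under DOX and 8.69, 8.48 and 8.42 under DMSO, a log2 fold change of -3.59. Whether reads of the MYCN transgene are counted as Mycn, here or in the cells, was not tested.

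**Figure D5:**
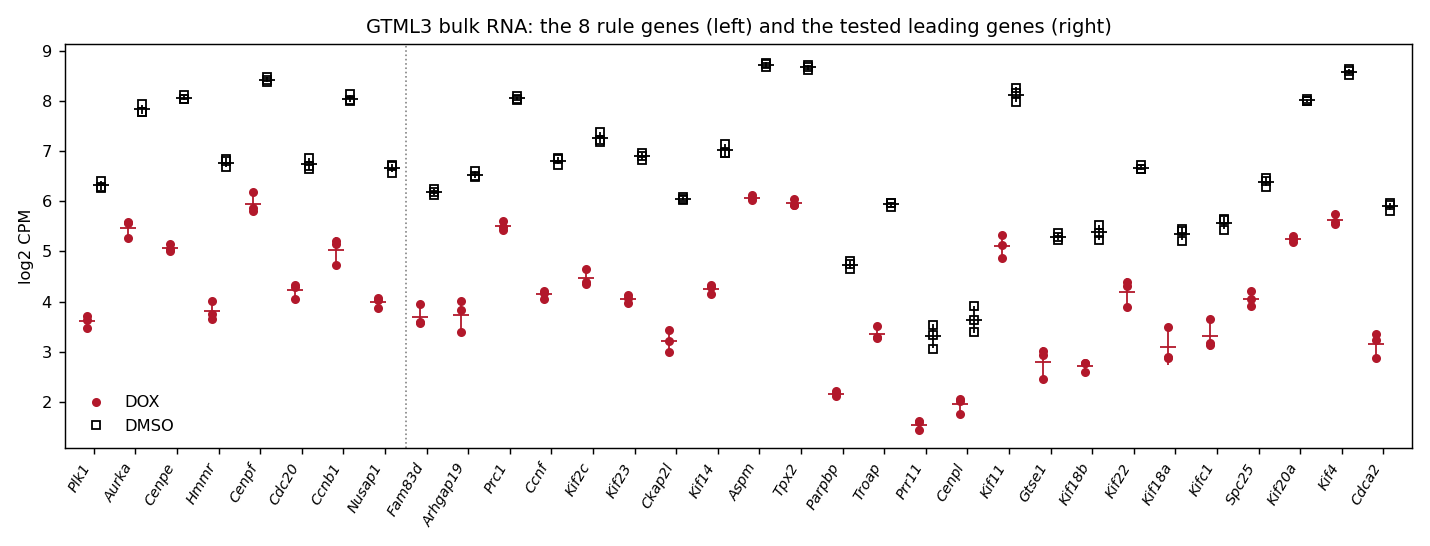
Log2 CPM in each GTML3 bulk RNA library under DOX (3 libraries) and DMSO (3 libraries) for the 8 rule genes, left of the dotted line, and the 24 tested leading genes; horizontal ticks are means and vertical bars SDs. For each gene the 3 DOX points lie below the 3 DMSO points. The share of all tested genes with such a separation was not counted. Of all 15926 tested genes limma called 31.4% lower and 34.5% higher under DOX.

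By role, 88 of the 91 tested genes of the 7 mitotic lists fell and 0 rose under DOX. The exceptions were Ccnb2 (0.56, limma adjusted p 0.222), which had 34 reads in each group, beside 0.679 UMIs per mitotic and 0.196 per other cell, Psrc1 with 2 reads in each group, and the tubulin Tuba1c (0.08, limma adjusted p 0.591). S phase genes fell in 43 of 43 (median -2.76) and ribosome biogenesis genes in 22 of 22 (median -2.01). Of the 15 genes lowest in mitotic cells 10 were tested. Of these, 6 rose and 4 fell, where 34.5% of all tested genes rose and 31.4% fell. Mxd4 rose, with 7.85, 8.00 and 7.99 log2 CPM under DOX and 5.42, 5.31 and 5.38 under DMSO (2.57, SE 0.0850, limma adjusted p 1.14e-12), and Mxd3 fell, with 2.98, 3.06 and 2.93 under DOX and 5.51, 5.43 and 5.33 under DMSO (-2.43). Ung fell by 3.3 and Hist1h2bc by 3.12 on the log2 scale. Fbxl20 (1.93), Nrxn3 (2.63), Vmac (2.0) and Rem2 (1.57) rose. Other lists moved in the same libraries: 10 of 12 photoreceptor genes (median 2.4), 17 of 28 neuronal differentiation genes (0.82) and 7 of 12 dissociation stress genes (1.16) rose. These counts stand beside the 34.5% of all tested genes that rose. The part of these lists in the fall of the mitotic genes was not tested.

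Open chromatin at the starts of these genes was read from 0.969 and 0.827 M reads in regions under DOX and 1.75 and 1.67 M under DMSO, and the duplicates were taken as 1 sample per condition without a test. For 21 leading genes with a region within 1000 bases of a start, the median ratio of DOX over DMSO was 1.02 (0.501 to 1.36), beside 1.01 for all 12591 genes with such a region. The 8 rule genes had a median of 0.796, with 6 below 1. Prc1 had 28.9 and 41.1 CPM under DOX and 24.0 and 37.1 CPM under DMSO, a ratio of 1.15. Cenpe had 39.2 and 33.8 CPM under DOX and 55.5 and 55.7 CPM under DMSO (0.657), and Hmmr 68.1 and 58.0 against 87.0 and 82.6 (0.744). Cdc20 went the other way, at 20.7 and 32.6 CPM under DOX and 22.3 and 13.8 CPM under DMSO (1.48). S phase genes had a median of 0.802 over 41 genes. The few reads in these libraries limit each value.

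Between tumors the mitotic genes leaned lower in GTS without passing the test. With a batch term for the number in the tables' column names, which was read as a batch although no label says so, limma called 8 of 15708 genes higher in GTS tumors (0.0509%) and 1 lower (0.00637%), while 3067 had an unadjusted p under 0.05. None of the 25 leading genes and none of the 8 rule genes was called, and the smallest limma adjusted p among them was 0.117. Their log2 fold changes were all below 0, with a median of -1.06 for the leading genes (-2.53 to -0.33) and -0.97 for the rule genes, beside -0.07 for all genes, and 18 and 6 of them had an unadjusted p under 0.05. Prc1 ran between 5.83 and 7.86 log2 CPM across GTS tumors (median 6.99) and between 7.25 and 7.88 across GTML tumors (median 7.61; limma adjusted p 0.212). Cenpf ran between 6.79 and 8.70 in GTS tumors (median 8.18) and between 8.54 and 9.49 in GTML tumors (median 9.06; limma adjusted p 0.125). The groups overlapped for both genes, and the GTS tumors were the more spread. Markers of some other cell types lay the other way. Log2 fold changes were above 0 for 15 of 17 astroglial genes (median 0.97), 10 of 11 oligodendrocyte genes (0.82) and 10 of 12 microglial and macrophage genes (0.59). Erythroid genes were above 0 in 3 of 5 (0.69). Endothelial genes (2 of 6 above 0, median -0.18), mural and fibroblast genes (2 of 7, -0.16) and T and NK cell genes (1 of 2, -0.05) leaned little. The 1 tested ependymal gene was at -0.27. In all these lists 0 genes were called, and their part in the values of the mitotic genes was not tested.

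Replicates 1 and 2 of the GTS tumors weighed on these values in opposite directions. Without replicate 1 of the GTS tumors the median of the leading genes was -0.58 and that of the rule genes -0.37, with 3 leading genes above 0. Without replicate 2 the medians were -1.53 and -1.39, and 9 of the 33 genes were called lower (smallest limma adjusted p 0.0186). By the number in the column names, both tumors fall with 6 GTML tumors, and the other set holds 4 GTS and 2 GTML tumors. Within these sets, in this order, Prc1 differed by -0.80 and -0.48, Plk1 by -1.29 and -0.60, and Fam83d by -0.75 and 0.14 on the log2 scale.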

How the data were processed

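Bulk RNA came from Trizol and RNeasy extraction and was sequenced on Ion Torrent, per the labels' protocols. Tools named without a role in the submitters' processing notes are Cell Ranger 3.3.0 and Seurat 3.0, STAR 2.4.0, Subread 1.5.2 and Bowtie2 2.2, besides MACS2, edgeR and limma; mm10 and mm9 are the builds. Single-cell values were deposited as whole UMI counts per gene and cell. Bulk RNA was deposited as log2 CPM, where in the tumors a batch coefficient fitted beside tumor kind came out at 0 (at most 2e-14), as after removal of a batch effect adjusted for kind, and the ATAC tables hold CPM per region as deposited. In GTML3, undoing the log2 of the deposited values gave whole reads for 100% of values within 0.1 read.

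The members, the gene lists and the comparisons were chosen with earlier results of these data known. Cells were thinned to 8000 UMIs without replacement (seed 1). Genes named were the 25 with the largest and the 15 with the smallest ratio among measured genes outside the rule genes, the rule genes, the driver genes and, from each list, the most abundant members and those with extreme ratios. A few others (Arl6ip1, Otx2, Nr1h5, Cadps2, Gnat3, Krt19) were chosen after their values were seen. Bulk values were fitted with limma 3.58.1 in R 4.3.3 (trend and robust, Benjamini-Hochberg, threshold 0.05). Genes were kept when CPM reached 1 in 3 libraries of the lines or 6 tumors; the lines' 4 groups, with preGTS1, shared 1 fit, and tumors had a batch term. No label says that replicates of GTML3 were separate cultures, and their p-values then reflect library-to-library spread that may be technical. The alternatives included edgeR 4.0.16 and DESeq2 1.42.0 on recovered reads, other thinning depths, other rule thresholds, filters, scalings and each library left out. Doublets were sought with Scrublet in scanpy 1.11.5. The scripts for these tests were tested on simulated data. Intervals cover counting error only.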

Additional observations from a re-analysis of the deposited data

Results flagged for a closer look

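Among the rule and leading genes, 66 gene and tumor-group combinations were checked for 1 tumor far from the rest by Dixon's test, and 9 were found. Chance gives about 5% of independent groups, but these genes were read in the same tumors, so the 9 are not separate events. Replicate 1 of the GTS tumors lay below the other 5 in 7 of them. It had 1.04 log2 CPM of Arhgap19 (the next tumor had 3.82), 0.25 of Ccnf (3.76), -0.0341 of Troap (3.07) and -0.21 of Gtse1 (3.19). It had 2.69 log2 CPM of Kifc1 (3.63), 2.73 of Kif20a (4.85) and 0.96 of Cdca2 (4.42). Only rule and leading genes were checked. Without it the log2 fold changes of GTS over GTML tumors were -0.59 for Arhgap19 (-1.58 with it), -0.95 for Ccnf (-2.19), -1.30 for Troap (-2.41), -0.94 for Gtse1 (-2.16), -1.25 for Kifc1 (-1.63), -0.65 for Kif20a (-1.42) and -1.25 for Cdca2 (-2.53). Replicate 3 of the GTML tumors lay above the other 7, with 8.16 log2 CPM of Arhgap19 (the next tumor had 5.67) and 8.96 of Kif4 (6.60). Without it, the fold change was -1.27 for Arhgap19 and -1.35 for Kif4 (-1.65 with it). None of these genes passed limma's adjusted threshold with all tumors.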

How the results depend on the processing

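The share of mitotic cells followed the rule's own construction: 53.5% with at least 4 genes, 41.1% with at least 6 and 33% on cells thinned to 8000 UMIs. The 7 mitotic lists had 82 to 88 genes and the core histone list 9 to 10 genes past 2-fold in the 10 alternatives. The S phase count of 7 was 4 with shallower thinning, 2 with thinning to 12000 UMIs, 1 without thinning, 1 with at least 6 rule genes, 4 with another seed and 31 against cells with 0 rule genes. Against those cells 407 genes were higher and 108 lower; 9 were lower without thinning and 95 with a filter of 0.02 UMI. Of the 25 leading genes 17 to 25 were shared with those named under the alternatives, and of the 15 lowest 1 to 15. Under DOX all 32 tested rule and leading genes were lower in every alternative, and with 1 library left out 5069 to 5247 genes were higher and 4652 to 4879 lower. Replicate numbers did not pair the GTML3 libraries (correlations of deviations -0.149, -0.0832 and 0.0932), and a replicate block gave 5302 genes higher, 4839 lower and the same 32. In the tumors, without a batch term 616 genes were higher and 308 lower, with 5 rule and leading genes lower, but the batch effect removed beforehand makes those errors too small. Median-centring gave 19 higher and set the median of all genes at 0.03 in place of -0.07. With 1 tumor left out, 2 to 354 genes were higher, 0 to 229 lower, and 0 to 9 rule and leading genes lower; the cause was not tested. The ATAC median of the leading genes was 1.05 within 250 bases. No called result changed direction; the Sox9 ratio, not called, lay between 0.606 and 1.22, and 3 leading genes, not called, were above 0 without GTS replicate 1. Depth limits Sox9, the genes under 0.1 UMI per cell and the ATAC values.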

Other observations

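Genes of cell cycle arrest and of nerve cells were read in the same GTML_SOX9-GFP cells, where 2.87% of all measured genes were at least 2-fold higher in mitotic cells and 0.189% lower. The counts of both lists lie near that background and are given as values. Of 13 measured G1 and arrest genes 1 was past 2-fold, Cdkn2d, which encodes the CDK4 and CDK6 inhibitor p19, with 0.688 UMIs per mitotic and 0.314 per other cell (ratio 2.19, 2.0 to 2.4). Cdkn1b (p27) stood at 1.42 and Cdkn1a (p21) at 1.36, above 1, while Cdkn1c (p57) was at 0.606, the antiproliferative gene Btg2 at 0.706 and Ccnd1 (cyclin D1) at 0.760. In GTML3 bulk RNA under DOX, Cdkn2d did not pass the test (log2 fold change 0.15, limma adjusted p 0.366), and Cdkn1b was higher by 1.08. Neuronal differentiation genes had 0 of 19 past 2-fold, with a median of 0.855. Mapt (tau) was at 0.629 and Tubb3 at 1.13.

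Gnat3, which marks tuft cells in other tissues, and Krt19, a keratin gene of simple epithelia, ran down with the number of rule genes. Gnat3 had 6.0 UMIs per cell at 0 rule genes and 2.27 at 8, and Krt19 had 4.16 and 1.42. In the depth classes their ratios of mitotic over other cells lay between 0.451 and 0.599 for Gnat3 and between 0.384 and 0.651 for Krt19.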
